A study of Mus musculus with 30 samples.

Results

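The proteasome genes were followed in kidney and muscle of Kif3aΔTub mice and wild-type mice. Members were all genes whose symbol begins with Psma, Psmb, Psmc, Psmd, Psme or Psmf followed by a number, among probe sets annotated to 1 symbol. The rule found 45 of the 17782 genes measured, on 79 probe sets. Of these, 43 were classed as proteasome subunits or their regulators, and 2 that match the rule by name were kept apart. The 2 are Psmc3ip, which encodes a partner of the recombination machinery, and Psme3ip1, which encodes a protein that binds the activator PSME3. The members were 7 alpha-ring and 7 beta-ring genes of the 20S core, 3 immunoproteasome genes, 2 tissue-restricted core genes, 6 ATPases and 11 other subunits of the 19S regulatory particle, 3 chaperones that assemble that particle, 3 activators and 1 inhibitor. Psme2 is not analysed here, because its probe set is annotated to more than 1 gene.

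All animals were 6 weeks old. Mutant mice, labelled Kif3aΔTub or Kif3aKSPCre, lack the kinesin-2 motor subunit Kif3a where the Ksp-cadherin promoter drives Cre, in kidney tubules, where Kif3a is needed to build primary cilia. The treated groups received sActRIIB-Fc, a soluble form of the activin receptor IIB, below termed the trap, which captures activins and their relatives, at 10 mg/kg into the peritoneum once a week, with 2 injections. The groups were 4 mutants given the trap, 4 mutants given PBS, 4 wild-type mice given the trap and 3 wild-type mice given PBS. Each of the 15 mice gave 1 kidney array and 1 muscle array, so the replicates are separate animals. Whole kidneys also hold cells in which this promoter is not active, and muscle is not a tissue that the Cre targets.

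The proteasome is the protease that degrades most ubiquitin-tagged proteins. Its 20S core is a barrel of alpha and beta rings with the cutting sites inside, carried by PSMB5, PSMB6 and PSMB7. The 19S particle caps the barrel, recognises ubiquitin, unfolds the substrate with its ATPases and feeds it in. Interferon induces PSMB8, PSMB9 and PSMB10, which replace PSMB5, PSMB6 and PSMB7 in newly made cores and give the immunoproteasome, a form whose peptides suit MHC class I and which is abundant in leukocytes. In muscle, the ubiquitin and proteasome pathway is a main route of protein loss during wasting.

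Values are the authors' deposited log2 intensities, so a difference of 1 is a 2-fold change. Levels of different probe sets cannot be set against each other, and levels were compared only within a probe set. Each change is a log2 fold change from limma with its standard error after ±. Calls used an adjusted p (Benjamini-Hochberg, over the 17782 genes of a tissue) below 0.05. Kif3a had 7.22 to 7.48 in untreated mutant kidneys and 7.76 to 7.89 in untreated wild-type kidneys (-0.50 ± 0.15, adjusted p = 0.011). Under the trap it was 7.37 to 8.001 in mutant kidneys and 7.34 to 7.84 in wild-type kidneys (-0.02 ± 0.14, adjusted p = 0.905), so whole-kidney RNA did not separate those groups by the targeted gene. Within groups, pairs of arrays had correlations across genes no lower than 0.977. The 5 muscle markers averaged 13.94 to 14.14 on muscle arrays and 4.18 to 4.71 on kidney arrays, and the 6 tubule markers averaged 11.01 to 12.60 on kidney arrays and 4.83 to 5.39 on muscle arrays.

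The promoters of Psmb8, Psmb9, Psme1 and Psmb5 are shown because the first 3 genes rose in mutant kidneys and the last fell. Each window runs from 250 bases before to 50 bases after the RefSeq start site, 5′ to 3′ on the gene's strand. Capitals mark a match to an interferon-stimulated response element (GAAA, then any 2 bases, then GAAA), to TTCNNNGAA, a gamma-activated sequence, or to TGACNNNGC, an antioxidant response element, searched on both strands.
Psmb8 promoter, GRCm38.p6 chr17:34197945-34198244, plus strand: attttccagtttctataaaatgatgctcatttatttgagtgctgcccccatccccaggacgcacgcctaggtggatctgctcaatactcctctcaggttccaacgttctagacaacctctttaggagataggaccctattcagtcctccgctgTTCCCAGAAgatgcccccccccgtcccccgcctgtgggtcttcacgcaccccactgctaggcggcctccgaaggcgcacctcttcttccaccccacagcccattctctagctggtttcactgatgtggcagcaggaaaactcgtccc
Psmb9 promoter, GRCm38.p6 chr17:34187281-34187580, minus strand: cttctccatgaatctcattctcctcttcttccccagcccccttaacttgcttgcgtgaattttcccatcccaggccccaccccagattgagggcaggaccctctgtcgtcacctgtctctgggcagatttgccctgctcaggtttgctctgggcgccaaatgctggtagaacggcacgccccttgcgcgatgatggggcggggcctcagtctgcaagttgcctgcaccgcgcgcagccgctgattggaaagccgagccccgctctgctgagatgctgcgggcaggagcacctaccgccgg
Psme1 promoter, GRCm38.p6 chr14:55578244-55578543, plus strand: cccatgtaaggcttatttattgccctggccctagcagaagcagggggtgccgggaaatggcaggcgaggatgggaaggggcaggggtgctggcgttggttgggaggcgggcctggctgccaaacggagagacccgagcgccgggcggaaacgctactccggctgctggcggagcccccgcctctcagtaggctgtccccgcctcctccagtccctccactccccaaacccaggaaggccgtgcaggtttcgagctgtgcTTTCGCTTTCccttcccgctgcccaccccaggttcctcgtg
Psmb5 promoter, GRCm38.p6 chr14:54617946-54618245, minus strand: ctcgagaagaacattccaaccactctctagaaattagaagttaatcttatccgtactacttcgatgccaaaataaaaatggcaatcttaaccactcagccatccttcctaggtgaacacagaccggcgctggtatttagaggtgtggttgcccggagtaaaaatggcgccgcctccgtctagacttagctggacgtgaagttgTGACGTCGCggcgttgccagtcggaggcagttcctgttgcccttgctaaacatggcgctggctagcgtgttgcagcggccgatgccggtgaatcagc
In the Psmb8 window the capitals are a gamma-activated sequence whose first base lies at -97 from the start site. In the Psme1 window they are an interferon-stimulated response element at 9, in reverse orientation, and in the Psmb5 window an antioxidant response element at -47. The Psmb9 window holds none of the 3 motifs, and neither does that of Psmb10.

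Windows were found for 38 of the 45 members, 41 windows in all. The interferon-stimulated motif was present in 4 of them (Psmb3, Psmd4, Psmd9 and Psme1), against 3.44% of all 32851 windows. The gamma-activated motif was present in 2 (Psmb8 and Psmd2), against 8.3% of all windows. The antioxidant motif was present in 6 (Psmb5, Psmb6, Psmc6, Psmd12, Psmd9 and Psme4), against 12.4% of all windows. A match to letters is not evidence of a bound factor, and these matches are a description of the windows. Psmb9 and the peptide transporter gene Tap1 lie head to head on chromosome 17, and their windows overlap by 275 bases on opposite strands. Psmb8 lies beside them, at 34198195 to 34201454 of chromosome 17 in GRCm38.p6, within the MHC region. Psmb10 lies apart, on chromosome 8 at 105935728 to 105938392.

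All 3 immunoproteasome genes were higher in untreated mutant kidneys than in untreated wild-type kidneys. Psmb8, which takes the place of Psmb5, had 8.75, 8.76, 8.39 and 8.67 in mutant kidneys, against 7.33, 6.61 and 6.93 in wild-type kidneys. The lowest mutant array lay above the highest wild-type array. The rise was 1.69 ± 0.17, or 3.22-fold (adjusted p = 9.46e-07). Psmb10, which takes the place of Psmb7, had 8.94, 9.17, 8.97 and 9.16 in mutant kidneys, against 7.83, 7.51 and 7.78 in wild-type kidneys. Its groups were also apart, with a rise of 1.35 ± 0.14, or 2.55-fold (adjusted p = 8.7e-07). Psmb9, which takes the place of Psmb6, had 7.46, 7.84, 7.38 and 7.74 in mutant kidneys, against 7.20, 6.61 and 6.90 in wild-type kidneys. It rose least of the 3, by 0.70 ± 0.17 (adjusted p = 0.00262), and its groups did not overlap.

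Psme1 encodes PA28 alpha, an interferon-inducible cap that opens the core and favours peptides for MHC class I. It had 10.86, 10.95, 10.66 and 10.92 in untreated mutant kidneys, against 10.07, 9.86 and 9.97 in untreated wild-type kidneys. The groups did not overlap and the rise was 0.88 ± 0.13 (adjusted p = 4.86e-05). Of the 3 activators it was the one that rose.

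**Figure D1:**
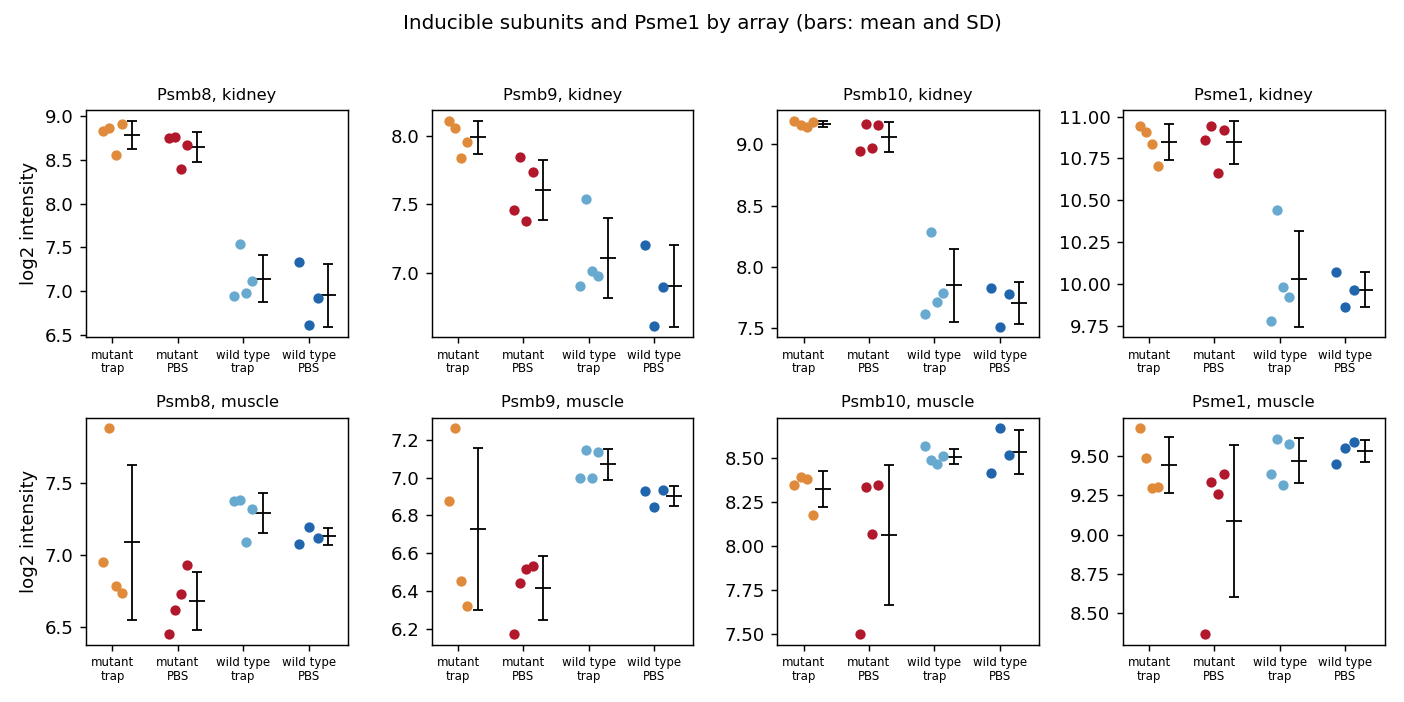
Log2 intensity of Psmb8, Psmb9, Psmb10 and Psme1 on each array, kidney above and muscle below, with a point for each mouse and bars for the mean and SD of each group; vertical scales differ between panels. In kidney the mutant arrays of all 4 genes lie above the wild-type arrays given the same injection, and in muscle the untreated mutant arrays lie below the untreated wild-type arrays.

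The constitutive beta subunits that these 3 replace did not move alike. Psmb7, the trypsin-like site, had 10.56, 10.58, 10.28 and 10.49 in untreated mutant kidneys, against 11.09, 10.98 and 10.98 in untreated wild-type kidneys. The groups were apart, and Psmb7 fell by 0.54 on the log2 scale (standard error 0.11, adjusted p = 0.000943). Psmb5, the chymotrypsin-like site, had 10.67, 10.76, 10.50 and 10.70 in mutant kidneys, against 10.998, 10.90 and 10.88 in wild-type kidneys. It fell by 0.27 (standard error 0.09, adjusted p = 0.0199), also without overlap, but lost its call with quantile normalization (adjusted p = 0.0534), without untreated mutant replicate 3 (adjusted p = 0.064) and without untreated wild-type replicate 1 (adjusted p = 0.0824). Psmb6, the caspase-like site, had 10.73, 10.67, 10.65 and 10.68 in mutant kidneys, against 10.70, 10.64 and 10.68 in wild-type kidneys. Its change was 0.01 ± 0.08 (adjusted p = 0.923) and the arrays overlapped.

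Within each kidney array, the log2 signal of each inducible subunit minus that of the subunit it replaces was compared between groups. This difference was negative on every kidney array. In untreated mutants it was less negative than in untreated wild type. The shift was 1.95 for Psmb8 minus Psmb5, 0.69 for Psmb9 minus Psmb6 and 1.89 for Psmb10 minus Psmb7. The arrays did not overlap for any of the 3 pairs. The exact two-sided permutation p was 0.0571 for each, the smallest that 4 against 3 arrays allow. Under the trap the differences between mutants and wild type were 1.74, 0.93 and 1.59 in the same order, with an exact two-sided permutation p of 0.0286 for each, the smallest that 4 against 4 arrays allow. Adjusted over the 24 tests of both tissues these are 0.229, and 0 of the 24 passed, at numbers of arrays where the exact test could not have passed.

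Tubule markers and a sign of RNA quality moved with genotype in the same kidneys. In untreated mutants 24.9% of all genes were called higher and 26.7% lower. All 6 tubule markers were called there, 2 higher and 4 lower. They ranged between -3.06 for the phosphate transporter gene Slc34a1 and 2.61 for the water channel gene Aqp2. Their mean level was 11.01 to 11.73 in untreated mutant kidneys and 12.14 to 12.15 in untreated wild-type kidneys. The actin 3′ minus 5′ signal, a sign of RNA quality, was 0.76 to 1.37 in untreated mutant kidneys and 1.40 to 1.499 in untreated wild-type kidneys, also without overlap. Under the trap 1 tubule marker was called higher and 3 lower, where 22.2% of all genes were called higher and 24.2% lower. The marker mean was then 11.77 to 12.05 in mutant kidneys and 12.18 to 12.60 in wild-type kidneys. The actin signal under the trap was 0.61 to 1.64 in mutant kidneys and 1.38 to 1.60 in wild-type kidneys. The part of the tubule cells in the changes of proteasome genes was not tested. Of the members named below as called in untreated kidneys, Psmd11 (0.26, adjusted p = 0.094) and Psmc3ip (-0.27, adjusted p = 0.0903) lost their calls with the actin signal as a covariate.

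Across all 45 members, 8 were called higher and 10 lower in untreated mutant kidneys. Of all genes tested, 24.9% were called higher and 26.7% lower in that comparison, so the total of members called was not above the background. The arrays of 27 of the 45 members did not overlap between untreated mutant and wild-type kidneys, so separation alone does not set a gene apart here. The share over all genes was not counted. The median change was -0.02 over the members and -0.08 over all genes, against 1.35 over the 3 immunoproteasome genes. Among the 7 alpha-ring genes 2 rose and 0 fell, and among the 7 beta-ring genes 0 rose and 2 fell. The 6 ATPases of the 19S particle had no call, with 1 at an unadjusted p under 0.05, and ranged between -0.23 for Psmc6 and 0.20 for Psmc4. Of the 11 other 19S subunits 1 rose and 2 fell.

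**Figure D2:**
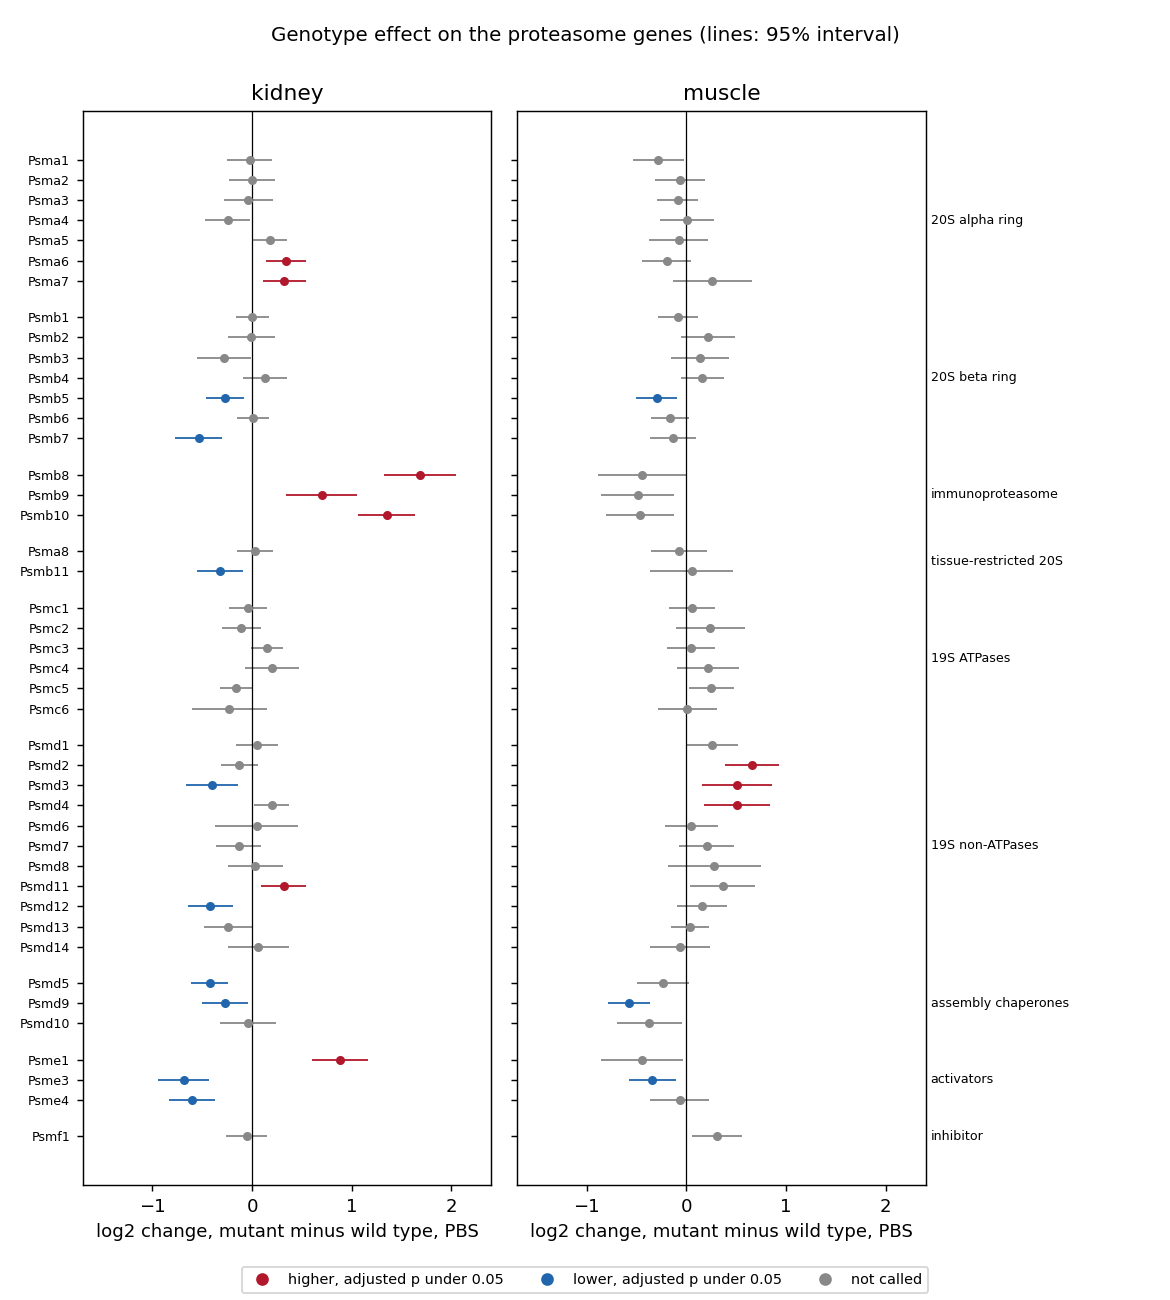
Log2 change of 43 proteasome genes in untreated mutants relative to untreated wild type, kidney on the left and muscle on the right, grouped by role, with 95% intervals of the fit. In kidney Psmb8, Psmb10, Psme1 and Psmb9 stand to the right of all others, and in muscle the called rises are Psmd2, Psmd3 and Psmd4.

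Among the alpha-ring genes, which form the gate of the core, Psma6 had 11.33, 11.15, 11.04 and 11.24 in untreated mutant kidneys, against 10.88, 10.87 and 10.79 in untreated wild-type kidneys. The groups did not overlap and the rise was 0.34 ± 0.09 (adjusted p = 0.00637). Its other probe set gave 0.10 (adjusted p = 0.381 over all probe sets), and with the mean of its probe sets the rise was 0.22 (adjusted p = 0.0374). Psma7 rose by 0.32 ± 0.10 (adjusted p = 0.0133), a call lost with median centring (0.23, adjusted p = 0.0651) and without untreated wild-type replicate 3 (adjusted p = 0.0548).

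The activators other than Psme1 fell in mutant kidneys. Psme3 encodes PA28 gamma, a nuclear cap that does not need ubiquitin. It had 7.004, 7.19, 6.82 and 6.84 in untreated mutant kidneys, against 7.68, 7.59 and 7.69 in untreated wild-type kidneys. All mutant arrays were lower, by 0.69 on the log2 scale (change -0.69 ± 0.12, adjusted p = 0.000218). Psme4 encodes PA200, a cap linked to degradation of acetylated histones. It had 10.81, 10.67, 10.68 and 10.79 in mutant kidneys, against 11.43, 11.28 and 11.31 in wild-type kidneys. The change was -0.60 ± 0.11 (adjusted p = 0.000222), and its other bright probe sets gave -1.13 and -0.82, while a dim one gave 0.44.

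Of the 3 chaperones that assemble the 19S base, Psmd5 and Psmd9 were called lower. Psmd5 had 8.45, 8.53, 8.43 and 8.44 in untreated mutant kidneys, against 8.99, 8.81 and 8.86 in untreated wild-type kidneys. The groups were apart (-0.42 ± 0.09, adjusted p = 0.000867). Psmd9 changed by -0.28 ± 0.11 (adjusted p = 0.0442), whereas the mean of its probe sets gave 0.077 (adjusted p = 0.507), and 11 other alternatives, 9 of them without a single array, ended its call. Of the 19S lid, Psmd12 had 9.74, 9.50, 9.44 and 9.66 in mutant kidneys, against 10.05, 9.99 and 9.97 in wild-type kidneys (-0.42 ± 0.11, adjusted p = 0.00396). Psmd3, also of the lid, changed by -0.41 ± 0.12 (adjusted p = 0.0121), and Psmd11, a lid subunit as well, rose by 0.32 ± 0.11 (adjusted p = 0.0201). The mean of probe sets put Psmd11 at 0.14 (adjusted p = 0.14), and it lost its call with median centring and without untreated mutant replicate 1 or untreated wild-type replicate 2 or 3. Psmd3 lost its call without untreated wild-type replicate 1 (-0.36, adjusted p = 0.0555).

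Psmb11, the thymus-specific beta subunit, was called lower in untreated mutant kidneys (-0.32 ± 0.11, adjusted p = 0.0205), but not with quantile normalization (adjusted p = 0.0955) or without untreated wild-type replicate 2 or 3 (adjusted p = 0.0608 and 0.0792). Its signal there was 3.22 to 3.52, against 3.53 to 3.71 in untreated wild-type kidneys. No detection calls were used, so it was not tested whether a signal this dim lies above background. Psma8, the testis-specific alpha subunit, was also dim, at 3.52 to 3.90 on all kidney arrays, and was not called. Of the genes kept apart from the classes, Psme3ip1 rose (0.35 ± 0.08, adjusted p = 0.00273), with 9.25, 9.08, 9.02 and 9.04 in untreated mutant kidneys, against 8.76, 8.71 and 8.76 in untreated wild-type kidneys. The other, Psmc3ip, was lower (-0.26 ± 0.10, adjusted p = 0.0457), a call lost under 17 of 24 alternatives, with -0.079 for the mean of its probe sets.

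**Figure D3:**
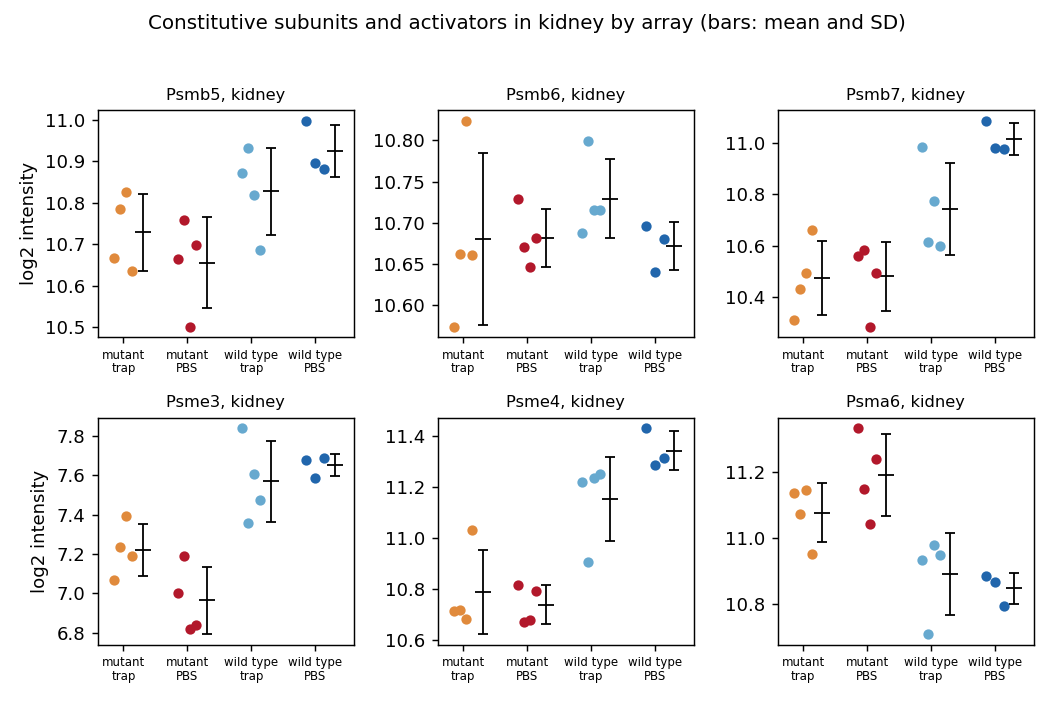
Log2 intensity in kidney of the constitutive sites Psmb5, Psmb6 and Psmb7 above and of Psme3, Psme4 and Psma6 below, with a point for each mouse and bars for the mean and SD of each group; vertical scales differ between panels. Untreated mutant arrays lie below untreated wild-type arrays for Psmb5, Psmb7, Psme3 and Psme4, above them for Psma6, and among them for Psmb6.

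Under the trap the same comparison of mutant and wild-type kidneys again gave rises of the immunoproteasome genes. Psmb8 had 8.83, 8.86, 8.55 and 8.90 in treated mutant kidneys, against 6.95, 7.53, 6.98 and 7.12 in treated wild-type kidneys (1.64 ± 0.16, adjusted p = 9.23e-07). Psmb10 had 9.19, 9.16, 9.14 and 9.18 in treated mutant kidneys, against 7.61, 8.28, 7.71 and 7.79 in treated wild-type kidneys (1.32 ± 0.13, adjusted p = 8.31e-07). Psmb9 had 8.11, 8.06, 7.83 and 7.95 in treated mutant kidneys, against 6.90, 7.54, 7.01 and 6.98 in treated wild-type kidneys (0.88 ± 0.15, adjusted p = 0.00027). The arrays of 13 of the 45 members, these 3 among them, did not overlap between these groups. The share over all genes was not counted, so separation alone does not set these 3 apart. Treated wild-type replicate 2 was the highest wild-type array for each of the 3.

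Psme1 had 10.94, 10.91, 10.83 and 10.70 in treated mutant kidneys, against 9.78, 10.44, 9.98 and 9.92 in treated wild-type kidneys (0.82 ± 0.12, adjusted p = 6.37e-05). Over all members 7 rose and 7 fell under the trap, where 22.2% of all genes were called higher and 24.2% lower, which is again a larger share than among the members. Psmd11 rose by 0.31 ± 0.10 and Psma7 by 0.27 ± 0.09, with adjusted p of 0.019 and 0.0253. Psmd11 was at 0.026 (adjusted p = 0.782) when its probe sets were averaged and at 0.19 (adjusted p = 0.106) with median centring, and lost its call under 4 of 25 alternatives, treated mutant replicate 3 left out among them. Psma7 was at 0.16 (adjusted p = 0.168) with median centring and lost its call under 6, among them leaving out treated mutant replicate 2 or 3 or treated wild-type replicate 2 or 4. The largest fall was that of Psmd9, with 7.67, 7.49, 7.71 and 7.78 in treated mutant kidneys, against 8.02, 8.37, 8.12 and 8.21 in treated wild-type kidneys (-0.52 ± 0.10, adjusted p = 0.000567). With the mean of its probe sets Psmd9 was at -0.20 and no longer called (adjusted p = 0.0726). Psmd3 changed by -0.38 ± 0.11 (adjusted p = 0.0135), a call lost with the 18S or the actin signal as a covariate (adjusted p = 0.0638 and 0.0506), and Psme4 by -0.36 ± 0.10 (adjusted p = 0.00714). Psmb7 changed by -0.27 ± 0.10 (adjusted p = 0.0452) and lost that call under 14 of 25 alternatives, 10 of them without a single array, where it reached -0.19 (adjusted p = 0.149) without treated wild-type replicate 1. Psmb5 changed by -0.10 ± 0.08 (adjusted p = 0.34) and Psmb6 by -0.05 ± 0.07 (adjusted p = 0.584). Psmf1, the inhibitor PI31, changed by -0.25 ± 0.09 (adjusted p = 0.0345), while its probe sets disagreed in untreated kidneys, where the extremes were 0.72 and -0.46. The mean of the probe sets gave -0.068 under the trap (adjusted p = 0.392), and Psmf1 lost its call under 7 of 25 alternatives, with treated mutant replicate 1 or 3 or treated wild-type replicate 2 left out among them.

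No member was called for the trap in kidney by limma. In mutants 0 of 45 were called for trap against PBS, with 4 at an unadjusted p under 0.05, where 1.07% of all genes were called higher and 1.33% lower. In wild-type kidneys 0 were called, with 5 at an unadjusted p under 0.05, where 0.326% of all genes were called higher and 0.551% lower. The interaction of genotype and trap called 0 members, with 1 at an unadjusted p under 0.05, where 0.664% of all genes were called higher and 0.72% lower. Psmb9 had the largest change of the immunoproteasome genes in treated mutants relative to untreated mutants, 0.38 ± 0.15 (adjusted p = 0.236), with arrays that overlapped. Psmb8 changed by 0.14 (95% interval -0.19 to 0.48) and Psmb10 by 0.11 (95% interval -0.16 to 0.37) in the same comparison.

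Between genotypes, leukocyte markers moved with the immunoproteasome genes in kidney. Of the 12 markers listed 11 were measured. In untreated mutant kidneys 9 were called higher and 1 lower, where 24.9% of all genes were called higher and 26.7% lower. The markers had a median change of 2.60. Their mean level was 8.24 to 8.79 in treated mutant kidneys and 8.26 to 8.64 in untreated mutant kidneys. In wild-type kidneys it was 6.25 to 6.87 under the trap and 6.10 to 6.30 under PBS. Tyrobp, a myeloid adaptor, rose most, by 3.50, whereas the T-cell gene Cd3e was not called (-0.16, adjusted p = 0.359) and the B-cell gene Cd79a was lower (-0.41). In bulk tissue, more cells of a type and more RNA per cell cannot be told apart, and the part of leukocytes in the rise of Psmb8, Psmb9 and Psmb10 was not tested. Among wild-type kidneys, treated replicate 2 had the highest marker mean, 6.87, and the highest mean of the 3 immunoproteasome genes, 7.79. In mutant kidneys these means did not rank the arrays alike. Untreated mutant replicate 3 had the highest marker mean of its group, 8.64, with the lowest immunoproteasome mean, 8.25. Treated mutant replicate 1 had the lowest marker mean of its group, 8.24, with the highest immunoproteasome mean, 8.71. The latter was 8.69 and 8.68 in treated mutant replicates 2 and 4, so that rank rests on a small difference.

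**Figure D4:**
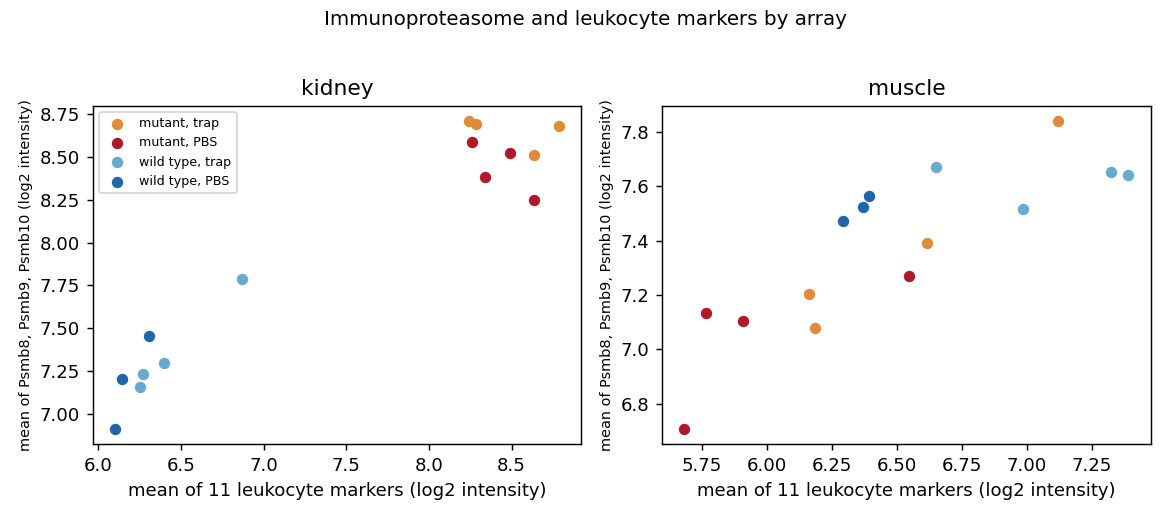
Mean log2 intensity of Psmb8, Psmb9 and Psmb10 (vertical axis) against the mean of 11 leukocyte markers (horizontal axis), with a point for each array, kidney on the left and muscle on the right; scales differ between panels. In kidney the 8 mutant arrays lie above 8.2 on both axes and the 7 wild-type arrays below 7.8 on both.

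Most of the listed genes that work with the immunoproteasome in antigen presentation rose in kidney as well. Of 12 measured genes of MHC class I and interferon response, 8 were called higher and 0 lower in untreated mutant kidneys. The other 4 were not called, and 3 of the 12 had a change below 0, the lowest at -0.21. Of all genes, 24.9% were called higher and 26.7% lower there. The median change was 0.63 over the list, against -0.08 over all genes. Tapbp, which loads peptides, rose by 1.56 ± 0.14, and the class I heavy chain gene H2-K1 by 1.32 ± 0.14. Tap1, the head-to-head neighbour of Psmb9, rose by 0.79 ± 0.20 (adjusted p = 0.0034). Under the trap 9 of the 12 rose in mutants relative to wild type, where 22.2% of all genes were called higher. H2-K1 was at 1.45 ± 0.13. The trap raised 1 gene of the list in mutant kidneys, Nlrc5, a transactivator of class I genes (0.97 ± 0.16, adjusted p = 0.0054). In that comparison 1.07% of all genes were called higher.

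Genes that build and serve the proteasome showed changes in both directions in untreated mutant kidneys, where 24.9% of all genes were called higher and 26.7% lower. Of these 4 short lists, 2 of 5, 2 of 5, 2 of 2 and 2 of 4 genes were called in either direction, too few genes for any of these lists to stand apart from that background. Of 5 core assembly factors 2 fell, Psmg2 by 0.61 and its partner Psmg1 by 0.59 on the log2 scale, while Pomp, the maturation factor, changed by -0.11 (adjusted p = 0.233). Nfe2l1, the transcription factor that raises constitutive subunits when the proteasome is impaired, rose by 0.51 ± 0.10, and Ngly1, the deglycosylase that helps activate it, changed by -0.82 ± 0.14. Of 5 proteasome-bound proteins 2 rose, Ecpas by 0.39 and Sem1 by 0.22. Of 4 delivery genes Zfand5, which stimulates the 26S particle, rose by 0.71 ± 0.10, and the shuttle gene Ubqln1 changed by -0.38 ± 0.10.

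In muscle the immunoproteasome genes were not called, and their untreated mutant arrays lay on the low side. Psmb8 had 6.45, 6.62, 6.73 and 6.93 in untreated mutant muscle, against 7.08, 7.19 and 7.12 in untreated wild-type muscle (-0.45 ± 0.21, adjusted p = 0.169). Psmb9 had 6.17, 6.44, 6.52 and 6.53 in mutant muscle, against 6.93, 6.84 and 6.93 in wild-type muscle (-0.49 ± 0.17, adjusted p = 0.0672). Psmb10 had 7.50, 8.34, 8.07 and 8.35 in mutant muscle, against 8.41, 8.67 and 8.51 in wild-type muscle (-0.47 ± 0.16, adjusted p = 0.0584). The arrays of 14 of the 45 members, these 3 among them, did not overlap between the groups. The share over all genes was not counted. None of the 3 passed the threshold as reported, but each passed it under some of 25 alternatives. Psmb8 did so under 1, without treated mutant replicate 2 (adjusted p = 0.0208). Psmb9 did so under 4: with only genes above the median level, with only the groups compared, and without treated mutant replicate 2 (adjusted p = 0.0203) or 4. Psmb10 did so under 5: with quantile normalization, array weights, only genes above the median level, and without untreated mutant replicate 2 (adjusted p = 0.0245) or 4. In the other direction, Psmb10 was at -0.28 (adjusted p = 0.112) without untreated mutant replicate 1 and at -0.30 (adjusted p = 0.322) with the actin covariate, and Psmb9 at -0.28 (adjusted p = 0.661) with the 18S covariate. Of the leukocyte markers 2 were called lower and 0 higher, where 9.04% of all genes were called lower and 6.93% higher. The markers averaged 5.68 to 6.55 in untreated mutant muscle and 6.29 to 6.39 in untreated wild-type muscle, and their part was not tested.

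Over all members 3 were called higher and 3 lower in untreated mutant muscle, where 6.93% of all genes were called higher and 9.04% lower, so these counts were near the background. All 3 rises were 19S subunits without ATPase activity. Psmd2, a scaffold of the base, had 12.10, 11.59, 11.43 and 11.60 in untreated mutant muscle, against 11.10, 10.91 and 11.06 in untreated wild-type muscle. The groups were apart and the rise was 0.66 ± 0.13, or 1.58-fold (adjusted p = 0.00288). With the mean of its probe sets it was 0.28 and no longer called (adjusted p = 0.0503). Psmd4, a ubiquitin receptor, had 12.42, 11.49, 11.68 and 11.82 in mutant muscle, against 11.43, 11.33 and 11.27 in wild-type muscle (0.51 ± 0.16, adjusted p = 0.0389). Psmd3 had 10.17, 9.34, 9.28 and 9.63 in mutant muscle, against 9.16, 9.02 and 9.10 in wild-type muscle (0.51 ± 0.17, adjusted p = 0.0468). Mutant replicate 1 was the highest array for each of these genes, and for Psmd11 (12.05) and Psmc4 (12.03), which were not called.

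**Figure D5:**
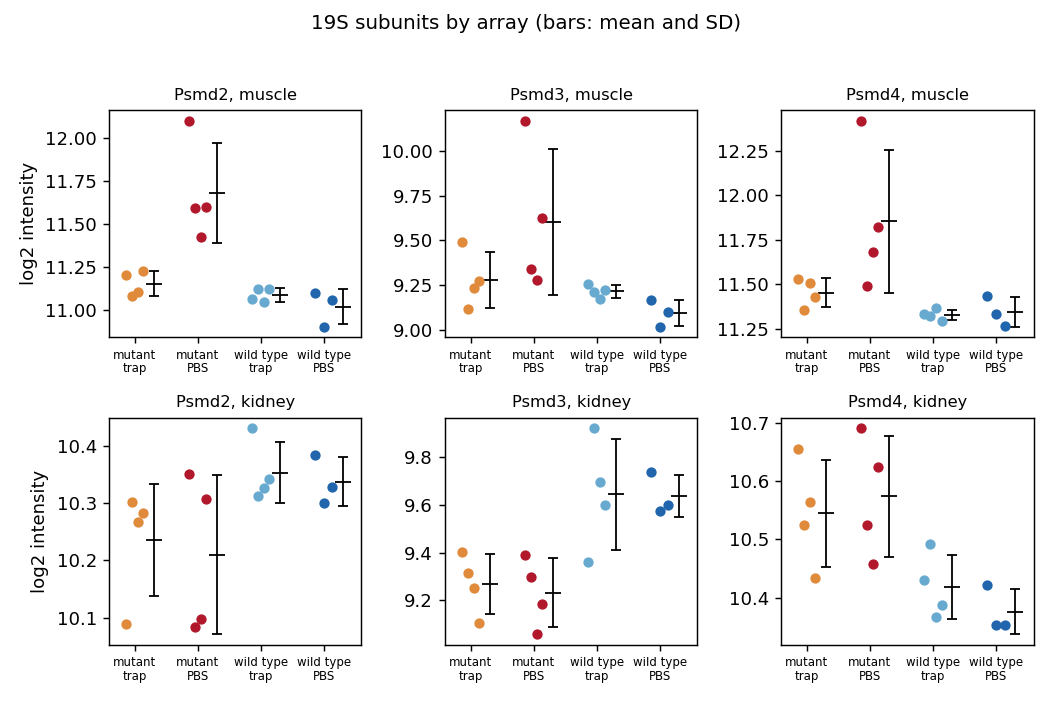
Log2 intensity of the 19S subunits Psmd2, Psmd3 and Psmd4 on each array, muscle above and kidney below, with a point for each mouse and bars for the mean and SD of each group; vertical scales differ between panels. In muscle the untreated mutants lie above the untreated wild type for all 3 genes, with 1 mutant array far above the others; in kidney Psmd3 is lower in untreated mutants.

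Of the 17 subunits of the 19S particle in muscle, 16 had a change above 0 in untreated mutants, with a median of 0.21, and 3 were called. Of all genes 42.6% had a change above 0, with a median of -0.05, and 6.93% were called higher and 9.04% lower. Without untreated mutant replicate 1 the median of the 19S subunits was 0.045 and 13 of 17 lay above 0, against 44% of all genes, so most of the median rested on that array. The mean level of the 19S subunits was 11.55 in that array, against 11.0006 to 11.09 in the other 3 untreated mutants and 10.88 to 11.01 in untreated wild-type muscle. Of the 14 constitutive core genes 5 had a change above 0, with a median of -0.08, and 1 was called. That gene was Psmb5, with 10.99, 11.08, 10.88 and 10.91 in untreated mutant muscle, against 11.24, 11.38 and 11.18 in untreated wild-type muscle (-0.30 ± 0.10, adjusted p = 0.0437), and it lost its call under 17 of 25 alternatives. Psmb6 changed by -0.16 ± 0.09 (adjusted p = 0.241) and Psmb7 by -0.14 ± 0.11 (adjusted p = 0.453). The assembly chaperone gene Psmd9 had 7.89, 8.03, 7.91 and 7.72 in mutant muscle, against 8.38, 8.57 and 8.44 in wild-type muscle (-0.58 ± 0.10, adjusted p = 0.00117). With the mean of its probe sets it was at -0.091 (adjusted p = 0.546), so the size of the fall depends on the probe set.

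Psme3 was also called lower in muscle, with 8.09, 8.36, 8.07 and 8.06 in untreated mutants, against 8.41, 8.49 and 8.55 in untreated wild type (-0.34 ± 0.11, adjusted p = 0.0441). Its dimmer probe set gave 0.47 (adjusted p = 0.0501 over all probe sets), and the mean of both gave 0.063, so the direction for Psme3 in muscle depends on the probe set. The 18S control signal was 12.98 to 13.49 in untreated mutant muscle and 13.53 to 13.62 in untreated wild-type muscle. With that signal as a covariate 0 members were called in place of 6 (Psmd2 at 0.69, adjusted p = 0.0695, and Psmd9 at -0.48, adjusted p = 0.0923), and leaving out single arrays gave 2 to 9 calls. Without untreated mutant replicate 1 there were 2 calls: Psmd2 stayed called (0.52, adjusted p = 0.00293), as did Psmd9 (-0.58, adjusted p = 0.00287), whereas Psmd3 and Psmd4 were at 0.32 each, with adjusted p of 0.0894 and 0.0571. Over 25 alternatives Psmd3 lost its call under 16, Psmd4 under 11 and Psme3 under 16, besides the reversal. Of the partner genes in muscle, 1 was called in this comparison, the class I chaperone gene Canx (0.46, adjusted p = 0.023). Of all genes, 6.93% were called higher and 9.04% lower there.

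In mutant muscle 1 member was lower under the trap than under PBS, Psmd2, which had 11.20, 11.09, 11.11 and 11.23 in treated mutants, against 12.10, 11.59, 11.43 and 11.60 in untreated mutants. The groups did not overlap (-0.52 ± 0.12, adjusted p = 0.0182), but the call was lost with the mean of probe sets (-0.19, adjusted p = 0.206), with only the compared groups, with either covariate and without treated mutant replicate 2 (adjusted p = 0.0512). The untreated mutants also served in the comparison with wild type, so both results rest on the same 4 arrays. No member was called higher, and 4.18% of all genes were called higher and 2.15% lower by the trap in mutant muscle. Psmb8, Psmb9 and Psmb10 changed by 0.40, 0.31 and 0.26, with adjusted p of 0.24, 0.278 and 0.344. Treated mutant replicate 2 had the highest Psmb8, 7.87, and the highest leukocyte mean of its group, 7.12. In wild-type muscle the leukocyte mean was 6.65 to 7.39 under the trap and 6.29 to 6.39 under PBS. The mean of Psmb8, Psmb9 and Psmb10 averaged 7.62 and 7.52 there. Treated wild-type replicate 2 had the lowest leukocyte mean of its group, 6.65, and the highest immunoproteasome mean, 7.67. The latter was 7.64 and 7.65 in treated wild-type replicates 1 and 4, so that rank rests on a small difference. The part of leukocytes was not tested.

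Between treated mutants and treated wild type, 0 members were called in muscle, with 2 at an unadjusted p under 0.05, where 0.146% of all genes were called higher and 1.51% lower. Psmd2 had 11.20, 11.09, 11.11 and 11.23 in treated mutants, against 11.06, 11.12, 11.05 and 11.13 in treated wild type, and these groups overlapped. For trap against PBS in wild-type muscle 0 members were called, with 3 at an unadjusted p under 0.05, where 0.0337% of all genes were called higher and 0.0281% lower. The interaction called 0 members, with 2 at an unadjusted p under 0.05, where 0.152% of all genes were called higher and 0.0169% lower. Its largest values were -0.59 for Psmd2 and 0.56 for Psmd9.

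The genotype effect under PBS differed between kidney and muscle for 12 members, in a single model of the 30 arrays that treated the animal as a random block. The difference, kidney minus muscle, was above 0 for 5 and below 0 for 7, where 19.7% of all genes were called above and 17.5% below 0, so the counts themselves do not exceed the background. All 3 immunoproteasome genes were among the 5, with 2.13 ± 0.27 for Psmb8 (adjusted p = 3.62e-07), 1.82 ± 0.21 for Psmb10 (adjusted p = 5.32e-08) and 1.19 ± 0.24 for Psmb9 (adjusted p = 0.000207). The others were Psme1 (1.33 ± 0.23) and Psma6 (0.54 ± 0.14). The 7 below 0 included the 19S subunits Psmd3 (-0.92 ± 0.20), Psmd2 (-0.79 ± 0.15), Psmd12 (-0.58 ± 0.15) and Psmc5 (-0.41 ± 0.12), and also Psme4 (-0.54 ± 0.17), Psmb7 (-0.40 ± 0.14) and Psmf1 (-0.36 ± 0.14). Psmf1 lost its call under 7 of 12 alternatives, with -0.092 (adjusted p = 0.617) for the mean of probe sets, Psmb7 under 4 and Psme4 under 1, without untreated wild-type replicate 2. With the mean of probe sets Psma6 was at 0.34 (adjusted p = 0.0262) and Psmd2 at -0.39 (adjusted p = 0.00311), both still called. The median difference was -0.10 over the members and -0.05 over all genes.

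In untreated wild-type animals the constitutive genes had lower signal in kidney than in muscle. Kidney was lower for 6 of 7 alpha-ring genes, 7 of 7 beta-ring genes, 6 of 6 ATPases and 10 of 11 other 19S subunits, whereas 58.3% of all genes were lower. The median difference, kidney minus muscle, was -0.25 for the alpha ring, -0.45 for the beta ring, -0.71 for the ATPases and -0.68 for the other 19S subunits, against -0.13 over all genes. The largest was -1.50 for Psmd6, and Psmd3 was the 19S exception, at 0.55. Of the immunoproteasome genes, Psmb10 was lower in kidney (7.71 in kidney, 8.53 in muscle), Psmb8 was 6.96 in kidney and 7.13 in muscle, and Psmb9 was 6.91 in kidney and 6.90 in muscle. The normalization between tissues is not stated, so these levels are a description without a test.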

How the data were processed

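Per the labels, total RNA from snap-frozen kidney and muscle was measured on the Affymetrix Mouse Genome 430 2.0 chip. The authors' deposited values are log2 intensities of probe sets that were already normalized. Their range shows the log base, and how they were normalized is not stated in the labels. They entered the tests as deposited, without scaling or a filter, and precision is limited by how many arrays there were.

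Of 35088 probe sets 31563 had 1 symbol, 825 several and 2700 none. A gene was represented by its brightest probe set on average, over 15 arrays for fits of 1 tissue and over 30 for the fit of both. Fits used limma 3.58.1 (R 4.3.3), by tissue, with 4 group means. The test was two-sided, with Benjamini-Hochberg adjustment over 17782 genes. The fit of both tissues treated the animal as a random block, at a consensus correlation of 0.0749. Within-array differences were tested by exact permutation of arrays.

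Members and lists were chosen with earlier results of these data known. The genes named were Psmb5 to Psmb10, the 3 largest rises and falls among other called members of a comparison, the largest called member of each class, and the top 2 called partners of a list. Psmd9 and Psmd3 in untreated kidneys, Psma7, Psmd11, Psma8, Psmc3ip, Psmc4, Psmc6, Psmd6, Psmc5, Pomp, Tap1, Slc34a1, Aqp2, Cd3e, Cd79a and Tyrobp were named after their values were seen. Alternatives were other summaries of probe sets, filters, normalizations, weights and covariates, and leaving out single arrays, also for the 19S median, which was added after seeing the data. On simulated data made for mutants against wild type under PBS, with 200 of 17782 genes changed, changes of 0.5 were recovered for 39% of genes in kidney and 23% in muscle, and changes of 1 for 87% and 86%. There were 5 false calls in kidney and 8 in muscle, and 0 calls with nothing changed. Far more genes were called in the data, 24.9% higher and 26.7% lower in untreated kidney, and the simulated noise was independent between genes. These rates therefore describe the simulation and not the fits reported here. Promoter windows came from RefSeq (GRCm38.p6). Plots used matplotlib 3.10.9 (Python 3.11.15).

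Replicate numbers here follow the order of the samples within a group, and they did not pair animals of different groups. Deviations of same-numbered arrays correlated at -0.243 to 0.301 in muscle and at -0.124 to 0.342 in kidney over 21 pairs each, with 6 and 4 over 0.1.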

Additional observations from a re-analysis of the deposited data

Results flagged for a closer look

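In 75 groups of 4 arrays tested for the members named, 9 held 1 array far from the other 3 by Dixon's test, and chance flags about 1 in 20 groups. In muscle, Psme3 was 8.36 in untreated mutant replicate 2, against 8.06 to 8.09 on the other arrays of its group. In mutant kidneys, Psme3ip1 was 9.11 in treated replicate 3 (others 8.90 to 8.92), Psme4 was 11.03 in treated replicate 4 (others 10.68 to 10.72), Psmd5 was 8.53 in untreated replicate 2 (others 8.43 to 8.45) and Psmb11 was 3.52 in untreated replicate 1 (others 3.22 to 3.25). In treated wild-type kidneys, replicate 2 stood apart for Psme3ip1 (8.95, others 8.79 to 8.81), Psma6 (10.71, others 10.93 to 10.98) and Psme4 (10.90, others 11.22 to 11.25), and replicate 3 for Psmb11 (3.29, others 3.62 to 3.68).

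The genotype effect under PBS differed between the tissues for 12 members by limma's test of the difference, kidney minus muscle. It was higher in kidney for Psmb8 (2.13), Psmb10 (1.82), Psme1 (1.33), Psmb9 (1.19) and Psma6 (0.54). It was lower in kidney for Psmd3 (-0.92), Psmd2 (-0.79), Psmd12 (-0.58), Psme4 (-0.54), Psmc5 (-0.41), Psmb7 (-0.40) and Psmf1 (-0.36). In both tissues the same animals were measured.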

How the results depend on the processing

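Of 51 results for single members, 25 kept their direction and their side of the threshold under every alternative run, 23 lost a call under at least 1, 2 of these also reversed, and 3 that were not called, Psmb8, Psmb9 and Psmb10 in untreated muscle, gained a call under 1, 4 and 5 of 25. Partner and marker genes were not rerun. Psmb8, Psmb9, Psmb10 and Psme1 stayed called in kidney in both genotype comparisons under all 25 alternatives. Psme3 in muscle reversed to 0.063 (adjusted p = 0.752; 0.0136 to 0.752 over its alternatives) when its probe sets were averaged, and Psmd9 in untreated kidneys to 0.077 (adjusted p = 0.507; 0.00782 to 0.507). That summary also ended the calls of Psmd2 and Psmd9 in untreated muscle, Psmd11 in kidney, and Psmd9 and Psmf1 in treated kidney. Leaving out untreated arrays, chosen after seeing the data, gave a 19S median of 0.045 to 0.27 in muscle, the lowest without mutant replicate 1. Called members in untreated mutant against wild-type muscle, 6 as reported, were 3 with only the compared groups, 0 with the 18S covariate, 2 with the actin covariate and 2 to 9 without single arrays. They were 2 without untreated mutant replicate 1, any 1 untreated wild-type replicate or treated wild-type replicate 1, and 3 without untreated or treated mutant replicate 4 or another treated wild-type replicate. For the trap in mutant muscle, 1 as reported, they were 0 with the mean of probe sets, the compared groups or either covariate, 4 with genes above the median level, 7 with array weights and 0 to 5 without single arrays (0 without treated mutant replicate 2, 2 without untreated mutant replicate 1, 5 without untreated mutant replicate 2). Array weights gave 1 in place of 0 for treated mutant against wild-type muscle and for the muscle interaction, which was 0 to 1 without single arrays (1 without untreated mutant replicate 2). In kidney the mean of probe sets gave 1 in place of 0 for the trap in wild type and for the interaction, and each covariate gave 9 in place of 14 for treated mutants against wild type. Untreated kidneys gave 13 to 25 in place of 18. Median centring gave 20 in place of 12 for the difference between tissues. The cause of these shifts was not tested. Counts of called members under an alternative, here and above, are given without the share of all genes called under it. They therefore do not show whether a shift is particular to the members. With the replicate block, which the numbers do not justify as a pairing, the counts were 17 and 12 for untreated and treated mutants against wild type in kidney and 6 for untreated muscle. Signal over background was not used here, which limits what can be said of the dim genes Psmb11 and Psma8.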
